A study of Rattus norvegicus with 8 samples.

Results

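The N-methyl-D-aspartate (NMDA) receptor subunit genes Grin1, Grin2a, Grin2b, Grin2c, Grin2d and Grin3a were followed across all libraries of a sequencing experiment on primary rat hippocampal neurons. They were chosen by gene symbol, and 6 of 6 were found among the 28909 symbols of the count table. All 6 also passed the filter on low counts (more than 20 reads in at least 2 libraries), which left 14309 symbols for testing.

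The neurons came from Sprague-Dawley rats and grew on filter inserts whose pores let axons and dendrites through but hold cell bodies back. The somatic compartment above the filter and the process compartment below it were lysed separately. Cultures were either left as controls, which received vehicle, or given the GABA-A receptor antagonist picrotoxin (PTX) for 48 h from day 18 to day 20 in vitro. Crossing compartment and treatment gave 4 groups (somata control, somata PTX, processes control and processes PTX) with 2 libraries each, made from total RNA after ribosomal RNA depletion. The labels number the 2 replicates but do not say whether they were separate cultures, so p-values measure the spread between these libraries, which may be partly technical. The filter separates by position and not by cell type, so that the processes of any cell in the culture can reach the lower side.

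NMDA receptors are glutamate-gated cation channels that assemble as tetramers around the obligatory GluN1 subunit, which Grin1 encodes and which binds the co-agonist glycine or D-serine. Grin2a to Grin2d encode the GluN2 subunits, which bind glutamate and set the open time, the magnesium block and the calcium signalling of the receptor. Grin3a encodes GluN3A, which also binds glycine and gives receptors with less calcium entry and less magnesium block. In the hippocampus GluN2B is the main partner of GluN1 in young neurons and GluN2A joins it as synapses mature. Block of GABA-A receptors over days raises network activity, and cultured neurons respond by scaling down their excitatory synapses, so the design asks how the transcripts of each subunit differed with PTX and between the compartments.

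In the somatic compartment PTX lowered Grin3a to 55.7% of control, and Grin2b stood at 75.5% of control. In the process compartment Grin2b stood at 76.6% of control, with nearly the same log2 fold change as in somata, while Grin3a stood at 91.5%. Averaged over both compartments Grin2b and Grin3a were lower after PTX, at 76.1% and 71.4% of control. The level of Grin1 with PTX was 108% of control in somata and 97.1% in processes. Relative to the typical gene, the transcripts of Grin1, Grin2a and Grin2b were lower in processes than in somata, at 41.3% to 46.5% of the somatic level, whereas Grin2c and Grin2d did not pass the test between compartments.

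Library totals ranged from 12290890 to 18455662 reads. Reads from the mitochondrial genome took 22.6% to 26.7% of the somatic libraries and 68.5% to 72.5% of the process libraries, so that 9517542 to 11227599 reads remained for the other genes in somata and 4702054 to 5491237 in processes. The 6 subunit genes together drew 5792 to 7240 reads per somatic library and 1019 to 1321 per process library. The labelled cell type was checked with marker lists. All 6 neuronal markers were detected in every library, and so were all 8 astrocyte markers. Their summed levels are given beside the comparisons they move with. Levels are in CPM (reads of a gene relative to its library size) after TMM scaling, which sets the typical gene equal between libraries. They are not divided by transcript length, so levels are compared between libraries and not between genes.

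Promoter sequences were taken from RefSeq on the GRCr8 build, which is not the build of the counts, and each covers the 250 bases before and 50 bases after the gene's start. Sequences were matched for 4 of the 6 genes (Grin1, Grin2c, Grin2d and Grin3a), and Grin2a and Grin2b are named only. The promoters of Grin1 and Grin3a are shown because Grin1 is the subunit shared by all NMDA receptors and Grin3a was called lower with PTX in somata. Grin1 lies on the minus strand at chr3:28528705-28529004 and Grin3a on the minus strand at chr5:69001509-69001808. Both are written 5′ to 3′ on the strand of the gene. Capitals mark a GC box (GGGCGG), which only the Grin1 sequence holds.
Grin1: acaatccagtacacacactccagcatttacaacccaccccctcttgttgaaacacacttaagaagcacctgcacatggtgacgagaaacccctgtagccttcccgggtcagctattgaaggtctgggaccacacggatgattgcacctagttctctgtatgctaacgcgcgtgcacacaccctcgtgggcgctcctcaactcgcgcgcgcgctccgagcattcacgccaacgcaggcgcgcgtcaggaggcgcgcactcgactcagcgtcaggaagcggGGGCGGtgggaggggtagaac
Grin3a: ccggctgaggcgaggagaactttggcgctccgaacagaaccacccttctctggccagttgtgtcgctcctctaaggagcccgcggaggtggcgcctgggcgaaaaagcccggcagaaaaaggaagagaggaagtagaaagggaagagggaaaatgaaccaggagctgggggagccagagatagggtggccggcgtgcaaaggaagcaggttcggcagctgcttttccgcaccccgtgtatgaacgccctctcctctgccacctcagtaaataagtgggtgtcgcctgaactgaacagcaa

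The Grin1 promoter held 25 CpG dinucleotides and 59.7% G and C. The Grin3a promoter held 17 CpG dinucleotides and 58.7% G and C. Across all 33469 RefSeq promoters of the same length the medians were 7 CpG dinucleotides and 51.7%. On both strands, the GC box letters GGGCGG were found in 1 of the 4 promoters, that of Grin1, with the first base 30 bases after the start, against 33.1% of all promoters. The cAMP response element TGACGTCA was in 0 of 4 against 1.83% of all promoters. The AP-1 letters TGANTCA were in 0 of 4 against 7.33%, and the TATA box letters TATAAA were in 0 of 4 against 14.2%. These matches describe the letters in these windows and nothing about binding.

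**Figure D1:**
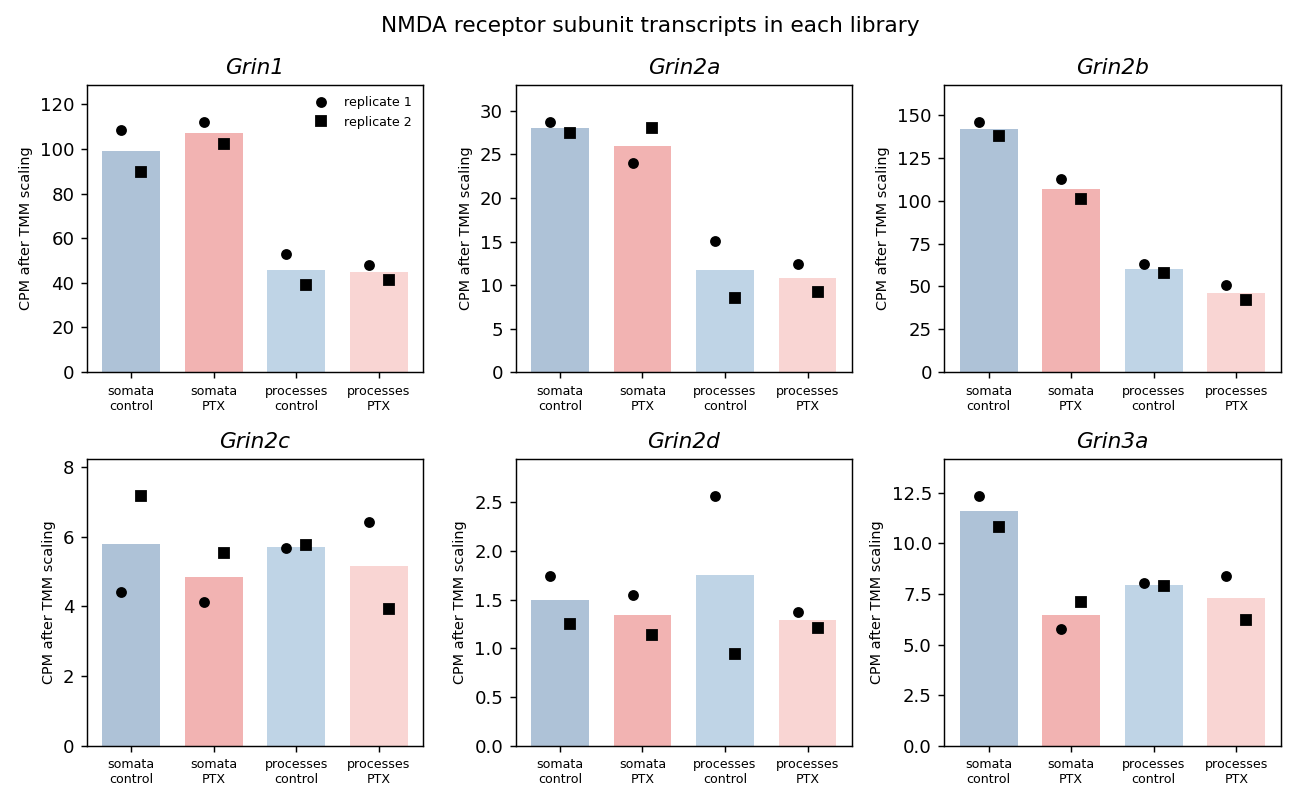
Level of each NMDA receptor subunit gene in CPM after TMM scaling (vertical axes, linear from 0 and different for each gene) in the 4 groups; bars are means of 2 libraries, circles are replicate 1 and squares replicate 2. Both PTX libraries of Grin2b lie below both controls in each compartment, and those of Grin3a do so in somata only.

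The obligatory subunit Grin1 had 108 and 89.6 CPM in the control somata and 112 and 102 CPM in the PTX somata, from 2287 to 3114 reads per library. In processes it had 53.0 and 39.0 CPM in controls and 48.0 and 41.4 CPM with PTX, from 332 to 475 reads. The PTX and control ranges overlapped in both compartments. The log2 fold change with PTX was 0.12 ± 0.149 (SE, n = 2 against 2) in somata, with a 95% interval of −0.21 to 0.45 and an adjusted p of 0.813. In processes it was −0.04 ± 0.163, with an interval of −0.40 to 0.32 and an adjusted p of 0.939. A change of Grin1 by more than these intervals allow was not seen, but smaller ones were not detectable with 2 libraries per group. The intervals are not adjusted over genes, so they do not set the smallest change that could be called.

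Grin2b, which encodes the glutamate-binding subunit of juvenile and extrasynaptic receptors and a direct docking partner of CaM kinase II, had 146 and 138 CPM in control somata. It had 113 and 101 CPM in PTX somata, from 2386 to 3512 reads per library. In processes the levels were 63.0 and 57.7 CPM in controls and 50.8 and 41.8 CPM with PTX, from 416 to 565 reads. In both compartments both PTX libraries lay below both controls. The log2 fold change was −0.40 ± 0.118 (SE) in somata, with an interval of −0.67 to −0.14, and −0.38 ± 0.128 in processes, with an interval of −0.67 to −0.10. Neither value alone passed the test in edgeR's quasi-likelihood fit (adjusted p = 0.098 in somata and 0.148 in processes). The likelihood ratio test called Grin2b in somata (adjusted p = 0.0427) but not in processes (0.106). The quasi-likelihood fit without a filter on low counts also called it in somata (0.0479). The replicate numbers were taken to pair the libraries, which the labels do not state. With the replicate number as a block Grin2b was called lower in somata (adjusted p = 0.00175) and in processes (adjusted p = 0.0135). The average over both compartments sets 4 PTX against 4 control libraries. The fit treats these as separate, although somatic and process libraries with the same replicate number may share a culture. In this average Grin2b fell by 0.39 on the log2 scale (SE 0.0872, adjusted p = 0.0166, and 9.14e-05 with the block). That average lost its call without somata control replicate 1 (adjusted p = 0.0568), somata PTX replicate 2 (0.0667), processes control replicate 1 (0.0621) or processes PTX replicate 2 (0.0593), while the log2 fold change stayed between −0.47 and −0.33.

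Grin3a, whose product dampens calcium entry and is known from immature synapses, had 12.3 and 10.8 CPM in control somata. It had 5.79 and 7.11 CPM in PTX somata, from 161 to 290 reads per library. In processes it had 8.03 and 7.87 CPM in controls and 8.38 and 6.23 CPM with PTX, from 62 to 73 reads. The groups did not overlap in somata and overlapped in processes. In somata the log2 fold change was −0.84 ± 0.171 (SE), with an interval of −1.22 to −0.47 and an adjusted p of 0.0221 (0.000267 with the replicate block). In processes it was −0.13 ± 0.209, with an interval of −0.59 to 0.33 and an adjusted p of 0.824. The somatic call was lost when any of the 4 somatic libraries was left out. The adjusted p was then 0.160 without control replicate 1, 0.0895 without control replicate 2, 0.201 without PTX replicate 1 and 0.0508 without PTX replicate 2, at log2 fold changes of −0.999 to −0.70.

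For Grin3a too, the average over both compartments treats the somatic and process libraries as separate. Its average PTX effect was −0.49 ± 0.135 (SE) on the log2 scale, with an adjusted p of 0.0459 and of 0.00727 with the block. This call is close to the threshold and was lost in DESeq2 (adjusted p = 0.098). It was also lost without somata control replicate 1 (0.139) or 2 (0.0739), somata PTX replicate 1 (0.144), processes control replicate 1 (0.123) or 2 (0.0934), or processes PTX replicate 2 (0.138). Whether the PTX effect on Grin3a differs between compartments was tested directly. The effect in processes minus that in somata was 0.72 ± 0.270, with an interval of 0.12 to 1.31, an unadjusted p of 0.0232 and an adjusted p of 1 over all genes (0.384 with the block). A difference between the compartments was therefore not shown after correction. For Grin2b the same difference was 0.02, with an interval of −0.36 to 0.41.

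Grin2a, the GluN2 subunit that rises as synapses mature, had 28.7 and 27.5 CPM in control somata and 24.0 and 28.0 CPM in PTX somata. In processes it had 15.1 and 8.46 CPM in controls and 12.4 and 9.15 CPM with PTX, from 72 to 135 reads. The groups overlapped in both compartments, and the control process libraries lay further apart than the group means. The log2 fold change was −0.11 (interval −0.54 to 0.32, adjusted p = 0.871) in somata and −0.14 (interval −0.69 to 0.42, adjusted p = 0.847) in processes.

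Grin2c, known from cerebellar granule cells and also from astrocytes, had 4.42 and 7.17 CPM in control somata and 4.13 and 5.55 CPM in PTX somata. In processes it had 5.69 and 5.75 CPM in controls and 6.43 and 3.92 CPM with PTX, from 39 to 56 reads. Grin2d, known from interneurons and the early brain, had the fewest reads of the 6 genes, 27 to 43 in somata and 8 to 23 in processes. Its level was 1.74 and 1.25 CPM in control somata, 1.55 and 1.14 CPM in PTX somata, 2.56 and 0.939 CPM in control processes, and 1.38 and 1.21 CPM in PTX processes. For both genes the PTX and control ranges overlapped in each compartment. The log2 fold changes of Grin2c were −0.27 in somata and −0.16 in processes, and those of Grin2d were −0.14 and −0.45, with standard errors of 0.268 to 0.506. At this depth the unadjusted intervals of these 2 genes are wide and reach −0.88 to 0.57 for Grin2c and −1.57 to 0.71 for Grin2d. As for Grin1, they do not set the smallest change that could be called.

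Over the 6 genes, 1 was called lower with PTX in somata (Grin3a), against 1.5% of all tested genes, and none was called higher. With the replicate block 2 were called lower in somata, against 6.79% of all genes. In somata 2 of the 6 genes (Grin2b and Grin3a) had both PTX libraries below both controls, which 25% of all genes did. In processes 0 of 6 were called, against 2.1% of all genes called lower. At an unadjusted p under 0.05, 1 of 6 passed there (Grin2b), against 2369 of all 14309 genes in either direction. DESeq2 and the likelihood ratio test also called 0 of the 6 in processes. With the block 1 was called lower in processes, against 6.09% of all genes, and 1 had groups that did not overlap, against 22.3%. Averaged over both compartments 2 of 6 were called lower, against 5% of all genes in the fit without the block and 10.9% with it. The interaction called 0 of 6 and 0% of all genes. At an unadjusted p under 0.05 it passed 1 of 6 (Grin3a), against 4% of all genes, and DESeq2 and the likelihood ratio test called 0 of the 6. The median log2 fold change of the 6 genes was −0.21 in somata and −0.15 in processes, where the median of all genes was −0.01 in both. Over all genes 299 were called higher and 214 lower in somata with TMM scaling, and 351 and 140 with library size alone.

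**Figure D2:**
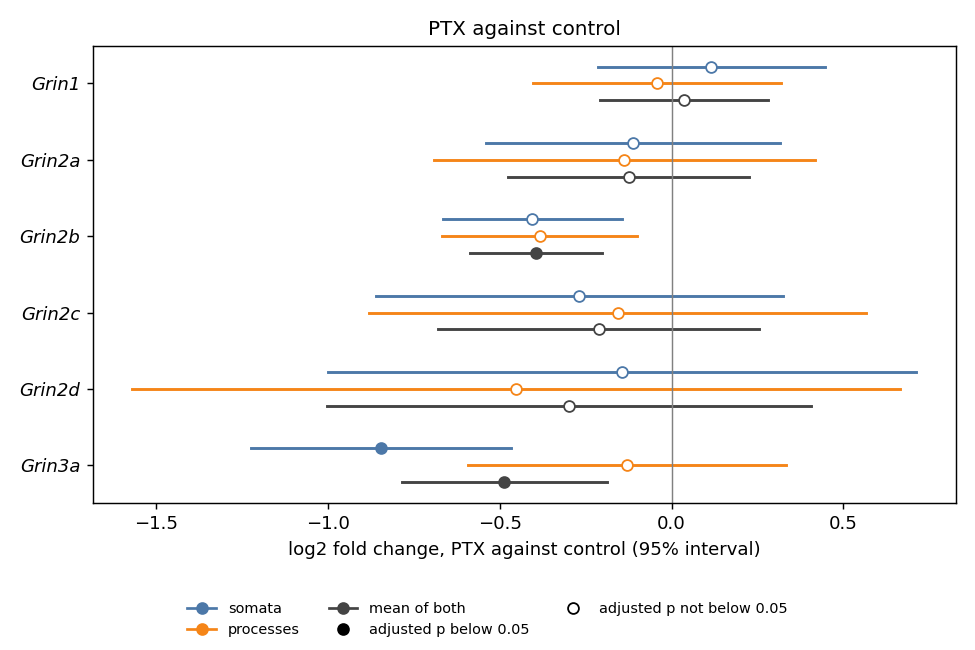
Log2 fold change of PTX against control (horizontal axis) for each subunit gene in somata, in processes and as the mean of both, with 95% intervals from edgeR's quasi-likelihood fit; filled points have an adjusted p below 0.05. Grin3a is called in somata (−0.84) and in the mean (−0.49), and Grin2b in the mean (−0.39) at nearly equal values in both compartments.

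Some marker genes of the cell types in the culture also moved with PTX. In bulk RNA, fewer cells of a type and less RNA per cell cannot be told apart. The summed level of the 6 neuronal markers was 1518 to 1657 CPM in control somata and 1309 to 1444 CPM in PTX somata, and 5078 to 5381 CPM against 3796 to 4443 CPM in processes. The 5 glutamatergic markers summed to 424 to 439 CPM in control somata and 277 to 290 CPM in PTX somata, and to 735 to 984 CPM against 515 to 517 CPM in processes. Of these 5 genes 2 were called lower with PTX in somata, and in processes 2 were called lower and 1, Slc17a7, higher. The sum in processes rests on Camk2a. Without it the other 4 genes summed to 212 and 163 CPM in control and 281 and 259 CPM in PTX processes. In somata they summed to 321 and 312 CPM in control and 240 and 222 CPM with PTX. The higher PTX sum in processes rests on Slc17a7, at 171 and 130 CPM in control and 261 and 240 CPM with PTX. Neurod6, Tbr1 and Prox1 each had both PTX process libraries below both controls. Camk2a and Slc17a7 were set apart here after their values were seen. The summed level of the 7 GABAergic markers was 239 to 339 CPM in control and 415 to 544 CPM in PTX somata, and 135 to 174 CPM against 219 to 286 CPM in processes. Of the 6 that were tested, 2 (Gad1 and Gad2) were called higher in somata and 1 (Gad2) in processes. Slc32a1 differed by −0.02 on the log2 scale in somata. The 8 astrocyte markers summed to 3678 to 4106 CPM in control and 2779 to 3827 CPM in PTX somata, and to 12740 to 14296 CPM and 10831 to 12112 CPM in processes. Gfap carried most of the sum in processes. Without it the other 7 summed to 3185 and 3358 CPM in control and 3134 and 3313 CPM in PTX processes, which overlap. Of the 8 genes 1 was called lower in somata, against 1.5% of all genes. In processes 0 were called, at log2 fold changes of −0.44 to 0.40. The oligodendrocyte lineage list of 9 genes ranged from 272 to 457 CPM in somata and from 471 to 648 CPM in processes, with control and PTX ranges that overlapped. Of the 6 microglial markers in the table Cx3cr1 was at 0 in several libraries and the sum did not exceed 2.12 CPM, and of the 3 endothelial markers Cldn5 was at 0 in all 8 libraries. The endothelial sum was 2.59 to 3.87 CPM in control and 7.71 to 8.52 CPM in PTX somata, and 1.78 to 1.88 CPM and 2.11 to 3.56 CPM in processes. It rests on Kdr, the only 1 of the 3 that was tested. Kdr had 3.49 and 2.31 CPM in control and 8.13 and 7.24 CPM in PTX somata. Flt1 had 1 to 11 reads per library. The 6 fibroblast and pericyte markers differed between replicates, with replicate 1 the higher in each group. In replicates 1 and 2 they summed to 119 and 47.3 CPM in control somata and 131 and 68.1 CPM in PTX somata. In processes the sums were 67.7 and 35.0 CPM in controls and 92.2 and 39.2 CPM with PTX. The part of these shifts in the PTX values of Grin2b and Grin3a was not tested.

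Ratios between subunit genes within a library do not depend on the scaling between libraries. The reads of Grin2b per read of Grin1 were 1.35 and 1.54 in control somata and 1.01 and 0.987 in PTX somata. In processes they were 1.19 and 1.48 in controls and 1.06 and 1.01 with PTX. In both compartments both PTX libraries lay below both controls. On the log2 scale the ratio was lower with PTX by 0.53 in somata and 0.36 in processes, a mean change of −0.44. The exact permutation test used the 36 arrangements of treatment within compartments. Its two-sided p was 0.0556, the smallest that these arrangements allow, and 0.167 after adjustment over 12 tests. The arrangements moved somatic and process libraries independently. Libraries with the same replicate number were not kept together, so the p-values of the PTX ratios ignore any pairing.

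The log2 ratio of Grin3a to Grin1 was −3.13 and −3.05 in control somata and −4.27 and −3.84 in PTX somata. In processes it was −2.71 and −2.30 in controls and −2.51 and −2.72 with PTX. The somatic groups did not overlap and the process groups did, with mean changes of −0.97 and −0.11 (exact permutation p = 0.111 over both, adjusted 0.267). The log2 ratio of Grin2a to Grin2b was −2.34 and −2.32 in control somata and −2.23 and −1.85 in PTX somata. In processes it was −2.06 and −2.76 in controls and −2.03 and −2.19 with PTX. Its mean change was 0.29 in somata and 0.30 in processes (exact permutation p = 0.222, adjusted 0.444), with groups that did not overlap in somata and overlapped in processes. The other ratios to Grin1 (Grin2a, Grin2c and Grin2d) had changes with PTX of −0.26 to −0.15 and exact permutation p of 0.389 to 0.444.

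As a share of all reads of the 6 genes, Grin2b went from 48.4% and 50.2% in control somata to 43.4% and 41.2% with PTX, and from 42.8% and 48.2% to 39.9% and 40.3% in processes. Grin1 took 36% and 32.7% in control somata and 43.0% and 41.7% with PTX. Grin3a took 4.09% and 3.95% in control somata and 2.22% and 2.90% with PTX. Shares within a fixed total move against each other, so a higher share of Grin1 does not by itself show a rise of Grin1. With CPM taken over the reads outside the mitochondrial genome, the 6 genes together had 743 and 672 CPM in control somata and 645 and 609 CPM with PTX, and 260 and 217 CPM in control processes and 230 and 188 CPM with PTX.

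**Figure D3:**
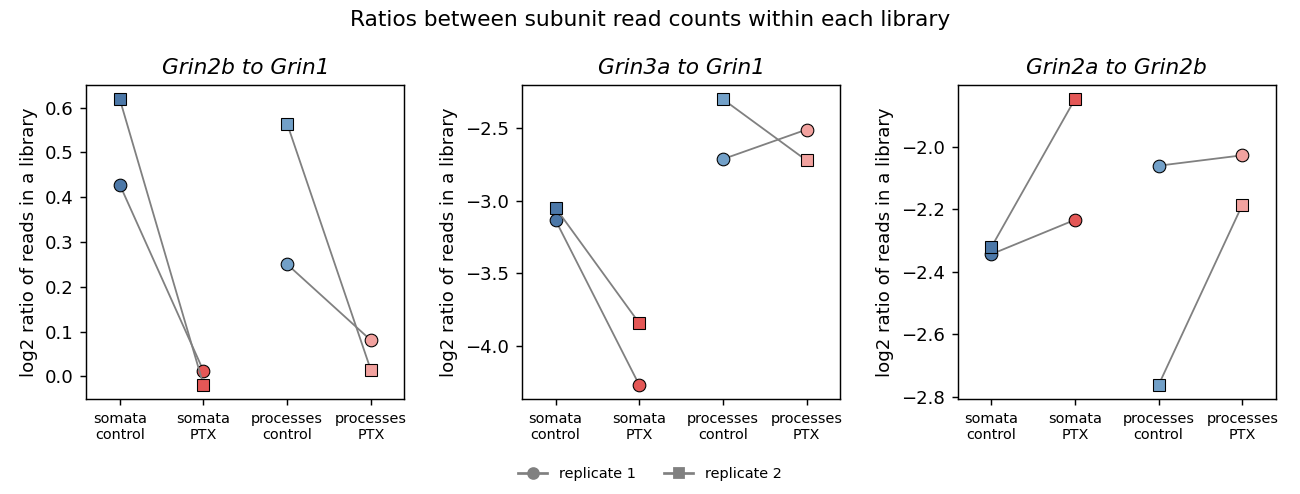
Log2 ratio of read counts of 2 subunit genes within each library (vertical axes, different for each ratio) in the 4 groups; circles are replicate 1, squares replicate 2, and lines join the libraries with the same number. The Grin2b to Grin1 ratio is lower in both PTX libraries of each compartment, at −0.02 to 0.08 against 0.25 to 0.62 in controls.

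Between the compartments, with TMM scaling, Grin1, Grin2a and Grin2b were called lower in processes in both treatments. Grin3a was called in control cultures only, and Grin2c and Grin2d in neither. This fit held no test between genes. Grin1 was lower in processes than in somata of control cultures, with a log2 fold change of −1.10 ± 0.158 (SE, adjusted p = 0.000233). Grin2a was lower at −1.25 ± 0.222 (adjusted p = 0.000983), and Grin2b at −1.23 ± 0.124 (adjusted p = 1.90e-05). In PTX cultures the values were −1.26 for Grin1 (adjusted p = 8.54e-05), −1.28 for Grin2a (0.000842) and −1.21 for Grin2b (2.23e-05). Each process library of these 3 genes lay below each somatic library of the same treatment. These calls were kept under every scaling, test, filter and left-out library that was tried.

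Grin3a was lower in processes of control cultures by a smaller step, −0.54 ± 0.187 (SE, adjusted p = 0.0352), without overlap of the libraries. The call was lost in DESeq2 (adjusted p = 0.0963) and without somata control replicate 1 (0.165), processes control replicate 1 (0.107) or processes control replicate 2 (0.121). In PTX cultures the log2 fold change of Grin3a was 0.18 ± 0.194 (interval −0.25 to 0.61, adjusted p = 0.473) and the libraries overlapped. The sign of this value depended on the scaling and was −0.00106 with upper quartile factors and −0.28 with library size outside the mitochondrial genome. Grin2c differed by −0.02 (interval −0.68 to 0.63) in control and 0.09 (interval −0.58 to 0.76) in PTX cultures, and Grin2d by 0.24 (interval −0.73 to 1.21) and −0.07 (interval −1.09 to 0.95). The libraries of both genes overlapped between compartments, and neither passed the test.

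In all, 4 of 6 genes were called lower in processes of control cultures, against 21.9% of all tested genes, and 3 of 6 in PTX cultures, against 24%. The same 4 and 3 genes had process libraries entirely below the somatic ones, which 39% and 39.7% of all genes did. The replicate block changed none of these calls. The median log2 fold change was −0.82 for the 6 genes in control and −0.64 in PTX cultures, against −0.05 for all genes in both. The scaling sets where 0 lies in this comparison. The median of all genes shifted to −1.86 in control and −1.87 in PTX cultures when only library size was used, to −0.51 and −0.50 with library size outside the mitochondrial genome, and to −0.25 and −0.23 with upper quartile factors. Over all genes the calls in control cultures were 3688 higher and 3135 lower with TMM, 2750 and 4704 with upper quartile factors, 1935 and 7057 with library size outside the mitochondrial genome, and 191 and 13271 with library size. In PTX cultures they were 3680 higher and 3441 lower with TMM, 2904 and 4768 with upper quartile factors, 1958 and 7104 with library size outside the mitochondrial genome, and 181 and 13318 with library size. The summed neuronal and astrocyte markers given above were higher in processes than in somata in every library, but Map2 carried most of the neuronal sum there (3369 to 4693 CPM) and Gfap most of the astrocyte sum (7698 to 11111 CPM). Without Map2 the other 5 neuronal markers summed to 554 to 687 CPM in control processes and 632 to 672 CPM in control somata. In PTX cultures they summed to 508 and 427 CPM in processes and 583 and 497 CPM in somata. Without Gfap the other 7 astrocyte markers were still higher in processes. They summed to 3185 and 3358 CPM in control processes and 2090 and 2326 CPM in control somata. With PTX these sums were 3134 and 3313 CPM in processes and 1722 and 2296 CPM in somata. In control cultures 3 of the 6 neuronal markers were called higher and 2 lower in processes, and of the 8 astrocyte markers 4 were called higher and 2 lower. The GABAergic sum was lower in processes within each treatment. The part of these marker levels in the compartment values was not tested.

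**Figure D4:**
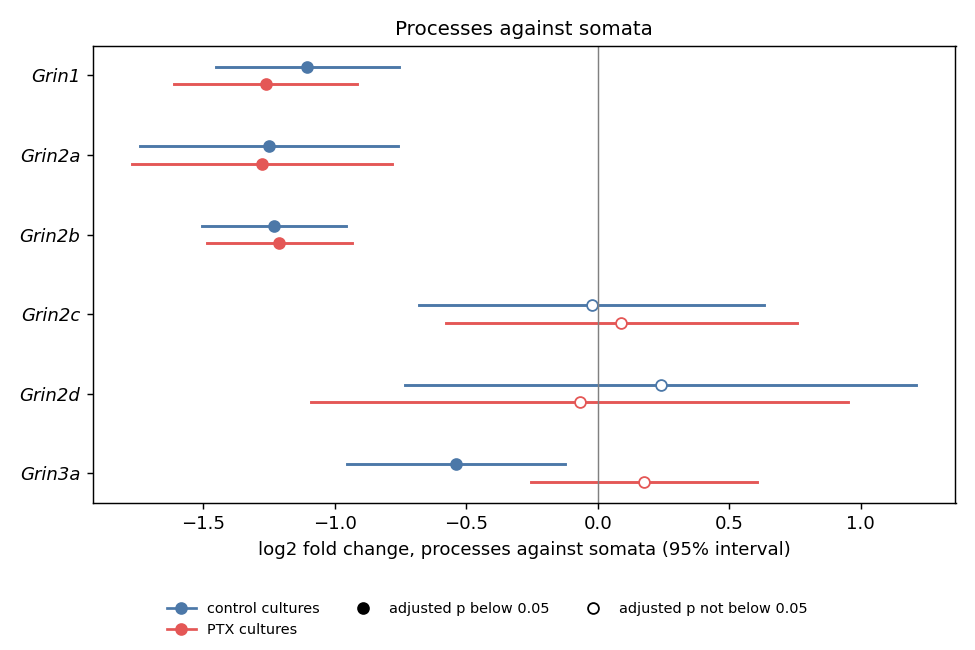
Log2 fold change of processes against somata (horizontal axis) for each subunit gene in control and in PTX cultures, with 95% intervals from edgeR's quasi-likelihood fit after TMM scaling; filled points have an adjusted p below 0.05. Grin1, Grin2a and Grin2b lie between −1.28 and −1.10 in both treatments, and Grin3a at −0.54 in control and 0.18 in PTX cultures.

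Ratios within libraries show the compartments without any scaling. The log2 ratio to Grin1 was higher in processes than in somata by 1.24 for Grin2c, 1.24 for Grin2d and 1.01 for Grin3a. The Grin3a step was 0.58 in control and 1.44 in PTX cultures. Each of these 3 ratios had process libraries entirely above the somatic ones in both treatments. Their exact permutation p was the smallest that the 36 arrangements allow (0.0556, adjusted 0.167). These arrangements also did not keep libraries with the same replicate number together. The ratios of Grin2a to Grin1 and of Grin2b to Grin1 differed by −0.10 and −0.03 between compartments, with exact permutation p of 0.5 and 0.833.

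Replicates differed in the same way across groups for some of the genes. Replicate 1 was higher than replicate 2 in 4 of 4 groups for Grin1, Grin2b and Grin2d, in 3 of 4 for Grin2a and Grin3a, and in 1 of 4 for Grin2c. Within replicate numbers, Grin2b was lower with PTX by 0.37 and 0.44 on the log2 scale in somata and by 0.31 and 0.46 in processes. Grin3a was lower in somata by 1.08 in replicate 1 and by 0.60 in replicate 2, and differed in processes by 0.06 and −0.33.

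Genes with the most similar pattern over the 8 libraries were found among 10207 genes by Pearson's r of log2 CPM, as a description. The r of Grin1, Grin2a and Grin2b share the large step between compartments. For Grin1 they were Cadps (r = 0.993), Dhcr7 (0.993) and Sv2a (0.992). For Grin2a they were Serac1 (0.986), RGD1304728 (0.985) and Il1rapl1 (0.985). For Grin2b they were Slitrk5 (0.997), Tmem150c (0.996) and Opcml (0.996). For Grin3a they included Thsd7a (0.961) and Pcdh19 (0.940), and for Grin2c they were Trmt10a (0.893), Bcan (0.883) and Plcg1 (0.881). Grin2d had a mean under 5 CPM and was not compared.

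Other genes of the NMDA receptor pathway were read from lists by role. Of 15 genes of co-agonist supply and clearance, 14 were tested. PTX raised 1 of them, Slc1a4, a transporter of neutral amino acids including serine, with a log2 fold change of 0.50 ± 0.104 (SE, adjusted p = 0.0264) in somata and 0.73 ± 0.112 (adjusted p = 0.0067) in processes, and lowered none. Over all genes 2.09% were called higher and 1.5% lower in somata, and 1.64% and 2.1% in processes. With the replicate block the counts were 3 higher and 1 lower in somata and 1 higher and 1 lower in processes, where 7.21% and 6.79% of all genes were called in somata and 5.1% and 6.09% in processes. Serine racemase (Srr), which makes D-serine, had log2 fold changes of 0.09 in somata and 0.01 in processes, without a call. It is named outside the rule, for its role. The list's median was 0.05 in somata and 0.02 in processes.

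Of 17 genes that anchor and traffic the receptor, 1 was lower with PTX in somata, and in processes 1 was lower and 1 higher. The lower gene in both compartments was Neto1, an auxiliary protein of kainate receptors that also associates with NMDA receptors, at −0.57 ± 0.125 (SE, adjusted p = 0.0325) in somata and −0.62 ± 0.140 (adjusted p = 0.0363) in processes. The higher gene was Git1, a scaffold that acts on small GTPases in spines, at 1.04 ± 0.152 (adjusted p = 0.00538) in processes. These counts stand against 1.5% of all genes called lower in somata, and 2.1% lower and 1.64% higher in processes. With the replicate block the counts were 4 lower and 1 higher in somata and 6 lower and 1 higher in processes, against 6.79% and 6.09% of all genes lower. The list's median was 0.01 in somata and 0.04 in processes.

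Of 20 genes of signalling downstream of the receptor, 19 were tested, and 5 were lower and 0 higher with PTX in each compartment, against 1.5% of all genes lower in somata and 2.1% in processes. The largest fall in each compartment was that of Camk2a, the alpha subunit of CaM kinase II, at −1.13 ± 0.149 (SE, adjusted p = 0.00305) in somata and −1.45 ± 0.149 (adjusted p = 0.00165) in processes. Ptk2b, a calcium-activated tyrosine kinase, was at −0.88 (adjusted p = 0.0311) in somata and −1.26 (adjusted p = 0.0114) in processes. With the block 8 were lower in somata and 9 in processes, against 6.79% and 6.09% of all genes. The list's median was −0.18 in somata and −0.26 in processes, against −0.01 for all genes in both. Camk2a is also on the glutamatergic marker list.

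Of the 11 AMPA, kainate and delta receptor subunit genes, 2 were lower with PTX in somata, against 1.5% of all genes. In processes 0 were called, against 2.1% of all genes lower. The 2 called in somata were Grik4, a high-affinity kainate receptor subunit, at −0.53 ± 0.127 (SE, adjusted p = 0.0462), and Gria1, an AMPA receptor subunit, at −0.53 ± 0.115 (adjusted p = 0.0301). At an unadjusted p under 0.05, 2 passed in processes (Gria1 lower and Grik3 higher), against 2369 of all 14309 genes in either direction. With the block 5 were lower in somata and 1 in processes, against 6.79% and 6.09% of all genes. The list's median was −0.26 in somata and −0.05 in processes. Between the compartments of control cultures 8 of the 11 were lower and 1 higher in processes, against 21.9% and 25.8% of all genes, with a median of −0.71.

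Because reads were summed by symbol, some values are of uncertain origin. In RefSeq annotation Grin1 overlaps Lrrc26, Grin2d overlaps Grwd1 and a long non-coding RNA, and Grin3a overlaps Ppp3r2, a pseudogene and a long non-coding RNA. Grin2a and Grin2b each overlap a long non-coding RNA, and Grin2c overlaps no annotated gene. The library kit keeps strand, and the strand setting of the counting is not given in the sources used here, so reads of overlapping and antisense transcripts cannot be told apart from those of the subunits.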

How the data were processed

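Ribosome-depleted RNA of 8 libraries was sequenced by the authors. According to their methods, reads were trimmed with Trimmomatic, aligned to the rat genome (Rnor 6.0) with Subread subjunc, counted with featureCounts on an Ensembl annotation and summed by gene symbol. The submitters' processing notes name STAR in place of Subread. The deposited counts are whole numbers per symbol without normalization. The authors also deposited tables of their own PTX comparisons (fold changes, log2 CPM, p-values and FDR), which were not used here.

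Genes had to exceed 20 reads in 2 or more libraries, which 14309 did, and TMM factors were computed on them. All 8 libraries were fitted with 1 coefficient per group (edgeR 4.0.16, R 4.3.3; glmQLFit, glmQLFTest, two-sided). P-values were adjusted by Benjamini-Hochberg over all tested genes, with a threshold of 0.05. Standard errors and 95% intervals come from this fit. Within-library ratios used 0.5 reads added to each count and exact permutation tests. The quasi-likelihood test replaced the authors' likelihood ratio test because of 2 libraries per group. The scripts were tested on simulated data.

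Replicate numbers come from the sample labels. The difference between replicate 2 and replicate 1 correlated between groups with r of 0.274 to 0.54 over 14309 genes, above 0.1 for every pair, so the numbers were taken to pair the libraries, and the fit with a replicate block is given where it changes a call.

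Named were all 6 members, at most 3 called genes per list and direction, and the 3 most similar genes for each member with a mean of at least 5 CPM, except where the text says otherwise. Some genes that this rule names are not reported here. The members and lists were chosen with earlier results of these data known, so list counts are descriptions. Alternatives were other scalings, DESeq2 1.42.0, the likelihood ratio test, other filters, the replicate block, only the 4 libraries compared, 1 read in place of 0.5 in the ratios, and leaving out each library.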

Additional observations from a re-analysis of the deposited data

How the results depend on the processing

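With 2 libraries per group, each left-out library leaves an arm with 1 sample, assumed to vary like the other groups. The number of the 6 genes called lower with PTX in somata, 1 in the main fit, was 2 with the likelihood ratio test, without a filter and with the replicate block, and 0 to 1 when each library was left out. In processes it was 0, and 1 with the block. For the mean over both compartments it was 2, and 1 with library size alone, with library size outside the mitochondrial genome and in DESeq2, and 0 to 2 without each library. Lower in processes of PTX cultures were 3, and 6 with library size alone, and in control cultures 4, and 6 with library size alone and 3 in DESeq2. The replicate block changed no other call of the 6 genes. The causes of these shifts were not tested.

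Reversed signs were those of values that were not called in the main fit. With library size alone Grin1 with PTX in processes was 0.015, and processes against somata were −1.58 for Grin2d in control cultures and −1.74 for Grin2c and −1.65 for Grin3a in PTX cultures. With library size outside the mitochondrial genome the last 3 were −0.22, −0.36 and −0.28. With upper quartile factors the difference of PTX effects was 0.0025 for Grin2a, and Grin2c and Grin3a between compartments of PTX cultures were −0.088 and −0.00106. Over left-out libraries the log2 fold change with PTX in somata ran from −0.027 to 0.25 for Grin1, −0.58 to 0.11 for Grin2c and −0.39 to 0.10 for Grin2d. In processes it ran from −0.25 to 0.20 for Grin1, −0.49 to 0.34 for Grin2a, −0.54 to 0.17 for Grin2c, −0.99 to 0.45 for Grin2d and −0.35 to 0.076 for Grin3a. As a mean it ran from −0.066 to 0.16 for Grin1, −0.30 to 0.11 for Grin2a and −0.57 to 0.15 for Grin2d. The difference of PTX effects ran from −0.36 to 0.081 for Grin1, −0.38 to 0.45 for Grin2a, −0.12 to 0.15 for Grin2b, −0.28 to 0.44 for Grin2c and −0.85 to 0.60 for Grin2d. Between compartments it ran from −0.33 to 0.36 for Grin2c and −0.66 to 0.78 for Grin2d in control cultures, and from −0.30 to 0.41 for Grin2c, −0.26 to 0.17 for Grin2d and −0.045 to 0.38 for Grin3a in PTX cultures. The compartment change of the log2 ratio ran from −0.25 to 0.10 for Grin2a to Grin2b and from −0.11 to 0.046 for Grin2b to Grin1. Grin2d has no value where 10 reads were required in each library.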

Other observations

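Grin3b, which encodes the remaining NMDA receptor subunit GluN3B and is not among the 6 genes, had few reads. They were 26 and 49 in control somata, 16 and 34 in PTX somata, 5 and 15 in control processes and 2 and 3 in PTX processes. Its log2 fold change with PTX was −0.61 ± 0.499 (SE, adjusted p = 0.658) in somata and −2.07 ± 0.907 (adjusted p = 0.284) in processes. With the replicate block the value in processes was called (adjusted p = 0.0448).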
